A study of Saccharomyces cerevisiae with 59 samples.

Results

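The cytosolic ribosomal protein genes of budding yeast were followed through 2 synchronized cell cycles in RNA and in chromatin. They were chosen by gene symbol alone, as every gene whose symbol starts with RPL or RPS followed by a digit, and 130 of the 5590 genes in the deposited tables met that rule (76 of the large subunit, 54 of the small subunit). The reference annotation (R64) names 132 such genes, and the other 2, RPS8A and RPS8B, were not analysed here. All libraries came from 1 W303 MATa strain, which carried the alleles ade2-1, his3-11,15 and leu2-3,112, the can1-100 allele, BAR1::TRP and URA3::BrdU-Inc, grown in YPD at 30 °C and held in late G1 with the mating pheromone α-factor at 50 ng/mL for 2 h. The released cells were washed into fresh YPD and sampled every 10 min, and the arrested cells were taken right before release. MNase-seq (30 libraries) and RNA-seq (29 libraries) covered 15 aligned time points (0 to 140 min) in 2 biological replicates, with the released samples of Replicate 1 labelled 10 min later than their aligned time and 1 RNA library at 110 min. At 10 min, the labels of the MNase library of Replicate 2 disagree on whether the cells had been released.

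The deposited tables hold 1 merged value per gene and aligned time point, so no value below has a replicate error and no test between time points could be made. Differences are therefore given as sizes, beside the same quantity over all 5590 genes. Each gene had an RNA value, the entropy of nucleosome signal over the gene body (higher where nucleosomes are less regularly placed), a gene-body nucleosome score and a promoter subnucleosome score for small protected fragments. RNA values were compared as log2(value + 1), and a gene was counted as higher or lower past 1.5-fold, or past 1.2-fold in the nucleosome and promoter scores. The depth of the libraries cannot be read from these tables. The values are averages over cultures, in which fewer cells of a type and less RNA per cell cannot be told apart.

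Ribosomal proteins coat the ribosomal RNA of both subunits and are needed in equal numbers, and their genes are among the most heavily transcribed in growing yeast. Most are present as a pair of near-identical copies (A and B) left by an ancient genome duplication, and they hold a large part of the introns of the yeast genome. Transcription of most of them depends on Rap1, which binds upstream and brings in Fhl1 and Ifh1, and the TOR and PKA pathways tie it to nutrients and growth. Ribosome biogenesis (Ribi) genes, which encode the factors that build ribosomes rather than their parts, are a separate regulon under much of the same control.

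The 300 bases upstream of the transcription start site (TSS) used by the authors are printed for 7 genes, each for the result named beside it, from the R64 reference and not from the W303 strain itself, 5′ to 3′ on the strand of the gene. Capitals mark the word ACCCNNACA, the core of the Rap1 consensus, on either strand. RPL11B (chrVII:648931-649230, minus strand) and RPL13A (chrIV:308052-308351, plus strand) were among the 3 genes with the highest promoter scores. RPS2 (chrVII:277219-277518, plus strand) and RPS17B (chrIV:1355575-1355874, minus strand) were among the 3 whose promoter score followed their RNA most closely. RPS11B (chrII:332513-332812, plus strand) shows a pair of words on the gene's strand, RPL22B (chrVI:64975-65274, minus strand) had the largest RNA difference at release, and RPS26A (chrVII:148645-148944, minus strand) had the lowest promoter score and holds no such word.
RPL11B: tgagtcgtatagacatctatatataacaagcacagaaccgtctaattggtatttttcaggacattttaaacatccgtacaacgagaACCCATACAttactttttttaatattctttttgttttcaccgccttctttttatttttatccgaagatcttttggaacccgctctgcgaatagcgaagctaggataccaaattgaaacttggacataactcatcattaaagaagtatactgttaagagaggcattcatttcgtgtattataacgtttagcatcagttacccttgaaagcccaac
RPL13A: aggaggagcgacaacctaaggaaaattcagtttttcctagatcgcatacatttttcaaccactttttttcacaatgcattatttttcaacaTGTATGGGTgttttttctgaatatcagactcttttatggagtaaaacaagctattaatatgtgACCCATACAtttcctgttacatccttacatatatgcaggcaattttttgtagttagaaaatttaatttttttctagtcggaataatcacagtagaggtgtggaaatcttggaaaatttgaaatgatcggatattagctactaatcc
RPS2: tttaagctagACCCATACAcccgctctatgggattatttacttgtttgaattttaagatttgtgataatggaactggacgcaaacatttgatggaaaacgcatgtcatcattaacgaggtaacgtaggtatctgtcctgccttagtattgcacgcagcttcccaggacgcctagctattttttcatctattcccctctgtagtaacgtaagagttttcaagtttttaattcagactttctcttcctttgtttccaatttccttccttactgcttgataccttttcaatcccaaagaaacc
RPS17B: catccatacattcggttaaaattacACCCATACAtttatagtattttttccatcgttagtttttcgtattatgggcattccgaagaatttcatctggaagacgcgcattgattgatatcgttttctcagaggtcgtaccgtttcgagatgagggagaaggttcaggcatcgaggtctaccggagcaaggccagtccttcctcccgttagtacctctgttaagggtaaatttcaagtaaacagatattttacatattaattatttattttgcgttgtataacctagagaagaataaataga
RPS11B: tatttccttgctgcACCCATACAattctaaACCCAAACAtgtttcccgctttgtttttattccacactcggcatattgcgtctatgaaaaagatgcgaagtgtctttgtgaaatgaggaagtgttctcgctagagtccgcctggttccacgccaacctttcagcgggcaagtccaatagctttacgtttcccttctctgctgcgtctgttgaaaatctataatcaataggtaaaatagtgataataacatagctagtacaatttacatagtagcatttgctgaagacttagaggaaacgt
RPL22B: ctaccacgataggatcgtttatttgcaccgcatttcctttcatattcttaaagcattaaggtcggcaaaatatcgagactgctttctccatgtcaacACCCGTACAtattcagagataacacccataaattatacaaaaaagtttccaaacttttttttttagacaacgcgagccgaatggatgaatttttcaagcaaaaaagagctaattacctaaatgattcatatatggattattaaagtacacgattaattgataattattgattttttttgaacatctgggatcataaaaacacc
RPS26A: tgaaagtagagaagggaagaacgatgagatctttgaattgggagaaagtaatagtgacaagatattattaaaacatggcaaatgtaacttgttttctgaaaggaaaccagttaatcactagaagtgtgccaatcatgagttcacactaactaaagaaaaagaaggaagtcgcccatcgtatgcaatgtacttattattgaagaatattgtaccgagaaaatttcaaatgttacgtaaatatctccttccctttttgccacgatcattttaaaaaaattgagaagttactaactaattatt

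The words lay 142 to 286 bp upstream of the TSS in these windows. The word of RPL11B was centred 210 bp upstream of the TSS, that of RPS2 286 bp, that of RPS17B 271 bp and that of RPL22B 199 bp. RPS11B had words at 282 and 266 bp, and RPL13A had words at 205 bp, on the opposite strand, and at 142 bp. In the 500 bp upstream of the TSS, 57 of the 130 genes (43.8%) had ACCCNNACA on either strand, against 5.9% of all genes. The exact form ACCCATACA was present in 24 (18.5%), against 1.25% of all genes, and 9 genes had more than 1 word, against 0.358% of all genes. Of 66 words, 49 lay on the strand of the gene and 17 on the other, with a median position 292.5 bp upstream of the TSS (243.5 bp over the words of all genes). The divergent pairs RPL13A and RPS16B, and RPL13B and RPS16A, share their ACCCATACA sites, which were counted once for each gene. Each shared site thus entered both strand counts, and these genes are among the 9 with more than 1 word. Only 6 of the 16 possible forms occurred, with ACCCATACA in 28 words, ACCCAAACA in 15, ACCCGTACA in 10, ACCCACACA in 7, ACCCAGACA in 5 and ACCCTTACA in 1. The word GACGCA, found in Fhl1 motifs, was present in 22 windows (16.9%), against 10.7% of all genes. The word TTACCCG, the core of the Reb1 motif, was present in 7 windows (5.38%), against 11.4% of all genes. None of the 66 Rap1 words overlapped either of these other words. A match describes the letters only, and binding was not measured.

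The libraries followed the labelled order of the cell cycle. The median z-scored RNA of pheromone response genes was highest at 0 min, that of G1/S genes was highest at 10 and 70 min, core histone genes at 20 and 80 min, and G2/M genes at 50 and 110 min. M/G1 genes were highest at 60 min and, within the second cycle, at 70 min, directly after that peak. Their second cycle was thus not marked by a later maximum. The mating type matched the label, with MFA1 at 347.743 to 6797.34 and STE2 at 230.34 to 1650.35 over the 15 time points, and the MATα gene STE3 at 0.672 to 1.56.

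The ribosomal protein genes held a growing share of the RNA for 70 min after release. Their summed RNA values were 23.9% of the table at 0 min, 24.3% at 10 min, 26.4% at 20 min, 29.5% at 30 min, 32.0% at 40 min, 34.1% at 50 min, 36.5% at 60 min and 37.8% at 70 min. Thereafter the share was 36.1% at 80 min, 34.9% at 90 min, 34.7% at 100 min, 35.6% at 110 min, 33.9% at 120 min, 32.1% at 130 min and 30.5% at 140 min. It was thus lowest in the arrested cells and did not go back to that level within the series. Large subunit genes made up 13.3% at 0 min, 20.0% at 70 min and 16.4% at 140 min, and small subunit genes 10.6%, 17.8% and 14.2% at the same times. Because the values of a library add up to a nearly fixed total, these are shares of summed values scaled by gene length, and not amounts per cell.

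**Figure D1:**
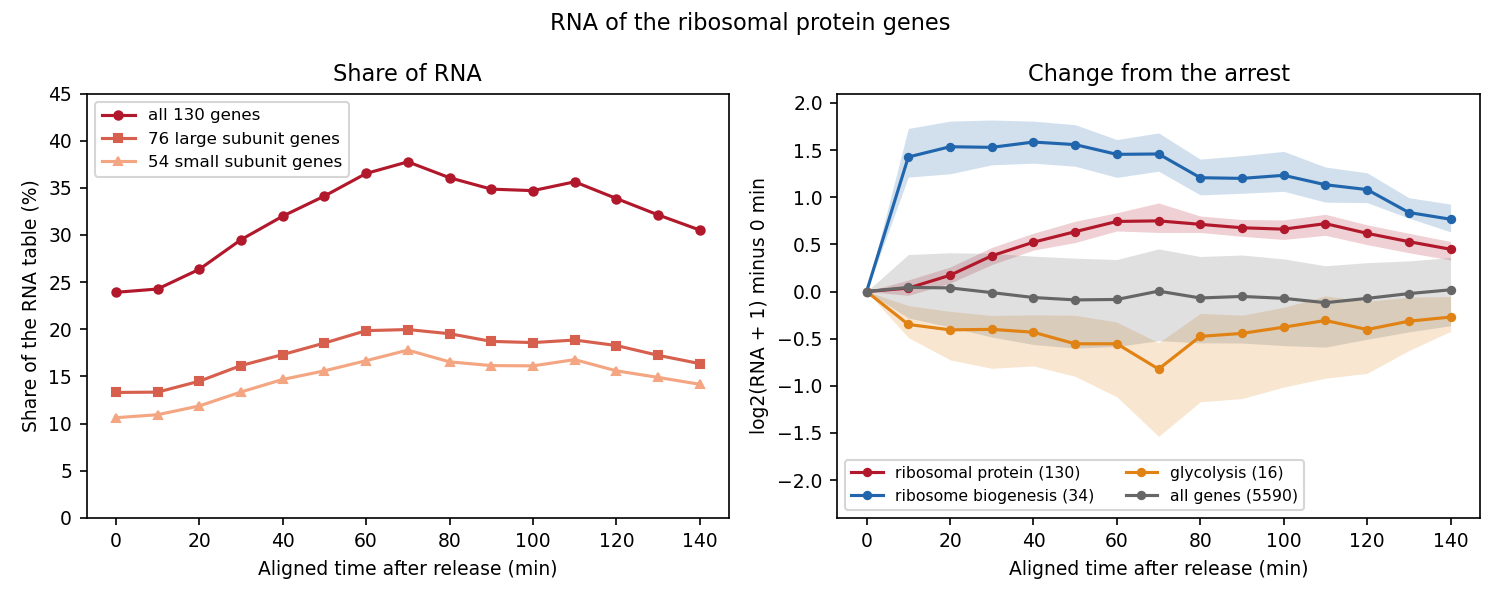
RNA of the ribosomal protein genes over aligned time after release (x axis, min; 0 min is the arrest). Left, share of the summed RNA values (%) for the 130 genes and for each subunit, which climbs to 37.8% at 70 min. Right, log2(RNA + 1) minus the 0 min value, as the median of each group with its quartile band, where Ribi genes are at 1.43 by 10 min and the ribosomal protein genes reach 0.74 only at 60 min.

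Gene by gene, the difference from the arrest built up in steps. The median RNA value of the 130 genes was 1135 at 0 min, 1163 at 10 min, 1291 at 20 min, 1481 at 30 min, 1621 at 40 min, 1709 at 50 min, 1858 at 60 min and 2038 at 70 min, and 1570 at 140 min. Genes past 1.5-fold above the arrest numbered 3 at 10 min (17.2% of all genes), 4 at 20 min (18.9% of all genes) and 17 at 30 min (18.0% of all genes). They numbered 43 at 40 min (17.3% of all genes), 79 at 50 min (16.8% of all genes) and 111 at 60 min (17.3% of all genes). At 60 min, which is M phase in the study's staging, all 130 were above their 0 min value. The median fold was 1.67 (log2 0.74, against -0.08 over all genes). Scaling by the upper quartile put that median at 0.87 and scaling by the sum of all other genes at 0.93, with the all-gene medians at 0.02 and 0.08. At a 2-fold threshold the 60 min count was 8.

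RPS26B, which encodes a protein at the mRNA exit channel of the small subunit, rose most at 60 min. It was at 3447 at 60 min, against 1612 at 0 min (log2 1.10). RPL22B was 1.06 and RPS7B 1.04 above their arrest values on the log2 scale. At the other end were RPS30A (0.14), RPL41B (0.18) and RPS25A (0.43), none of them past 1.5-fold. RPL41A and RPL41B encode the smallest ribosomal protein, and RPS25A a protein known from initiation at internal ribosome entry sites. RPS30A was at 2583 at 60 min, against 2337 at 0 min, and was lowest at 20 min (1923). Genes with an intron in the coding sequence (88) and genes without one (42) had median 60 min differences of 0.76 and 0.69.

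**Figure D2:**
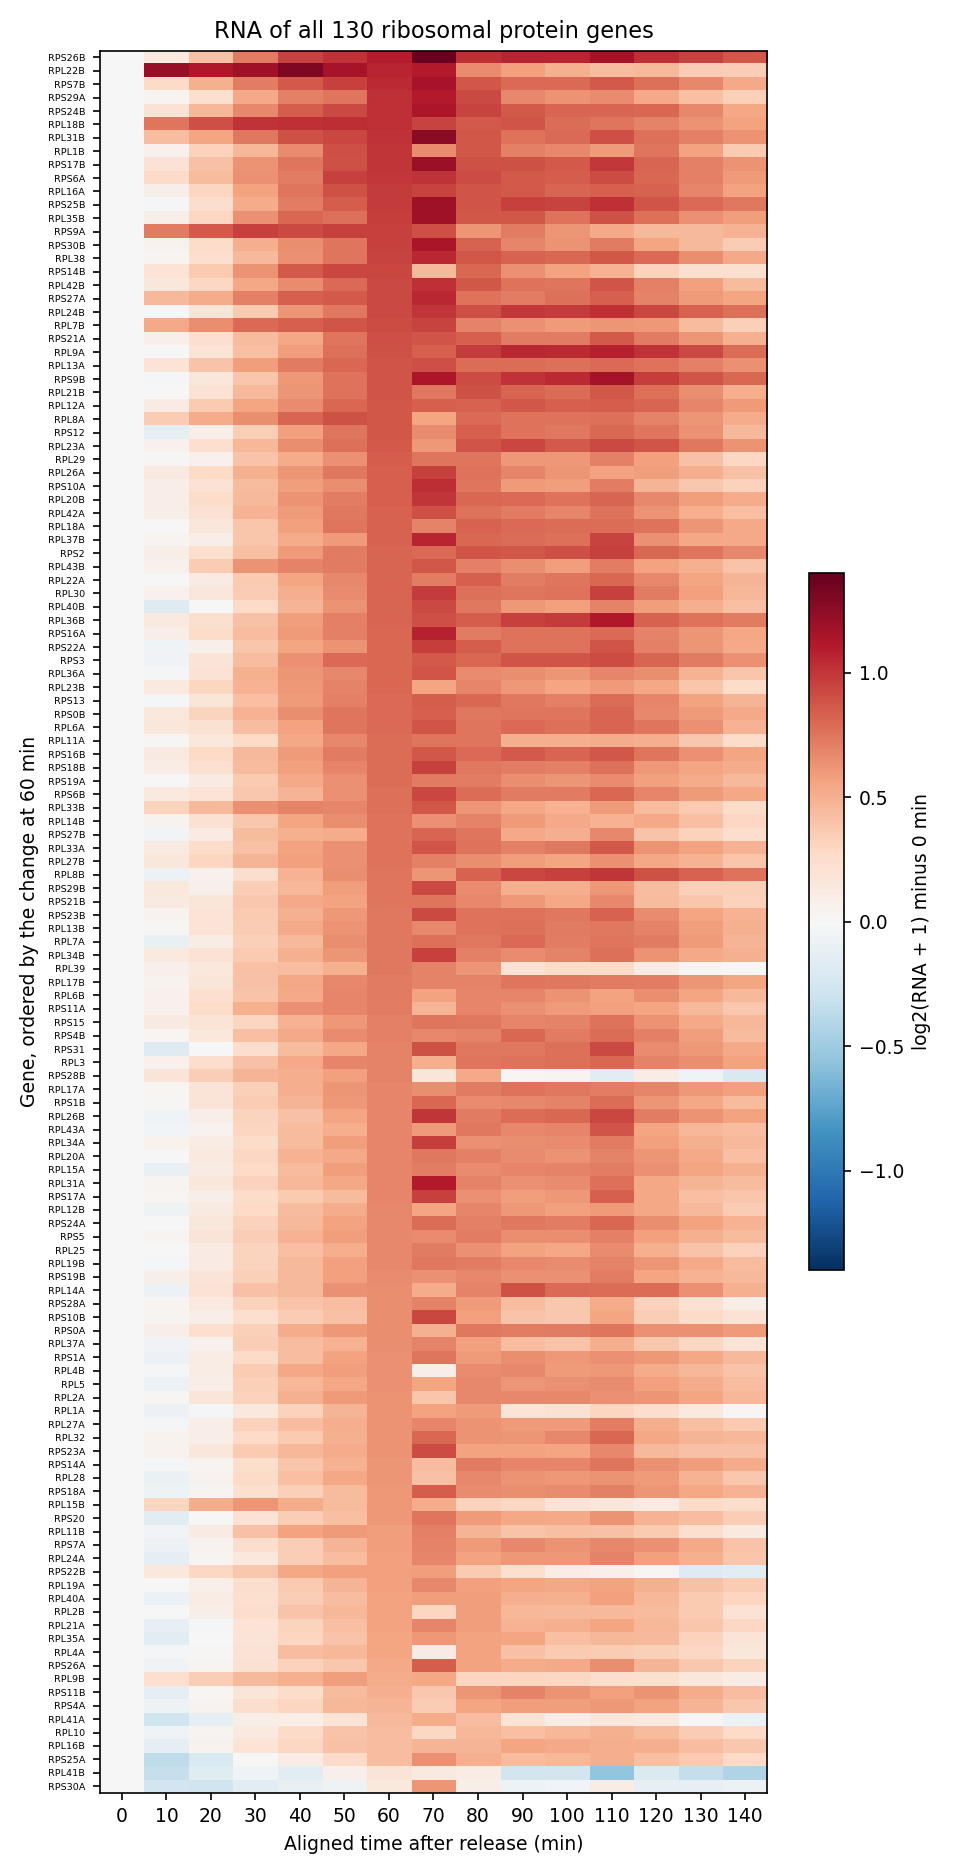
RNA of each of the 130 genes (rows, ordered by the 60 min difference) at each aligned time point (columns, min), as log2(RNA + 1) minus the 0 min value of the same gene (colour scale). All 130 rows are above 0 at 60 min, and the 70 min column breaks the smooth course of many rows.

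The early response to release was small. Between 10 and 0 min the median log2 difference was 0.04 over the 130 genes, and upper-quartile scaling turned its sign (-0.10, with all genes at -0.08). Only RPL22B, RPL18B and RPS9A were past 1.5-fold higher, and none was past 1.5-fold lower (12.3% of all genes were). RPL22B, whose intron is bound by its own protein product in yeast, was at 369 at 10 min, against 158 at 0 min (2.33-fold), and was the only one past 2-fold. It stood at 391 at 40 min and had come down to 200 by 140 min. RPL18B was at 225 at 10 min, against 133 at 0 min. RPS9A was at 417 at 10 min, against 251 at 0 min. All 3 are the less abundant copies of their pairs. The lowest log2 differences were -0.35 for RPS25A (3064 at 10 min, against 3915 at 0 min), -0.33 for RPL41B and -0.28 for RPL41A. RPL41A was at 16539 at 10 min, against 20104 at 0 min. None of these 3 differences passed 1.5-fold.

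Ribi genes moved ahead of the ribosomal protein genes. Over 34 Ribi genes the median difference from the arrest was 1.43 at 10 min, 1.59 at 40 min and 1.45 at 60 min, with 34 of 34 past 1.5-fold higher at 60 min. Between 60 and 10 min the 130 ribosomal protein genes differed by a median of 0.69, with 105 past 1.5-fold (5.13% of all genes) and 129 above 0, whereas the Ribi median was -0.03 and that of all genes -0.20. Among 80 other genes with mean RNA values of at least 1000, 9 were past 1.5-fold higher and 6 lower at 10 min (median -0.05). The 16 glycolytic genes had medians of -0.35 at 10 min and -0.55 at 60 min.

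Regulators and partners of ribosomal proteins differed at 10 min in their own ways. Of 12 transcription factors of these genes, 5 were past 1.5-fold higher and 1 lower (median 0.38). RAP1 was at 64.1 at 10 min, against 23.6 at 0 min. IFH1 was at 52.4 at 10 min, against 28.1 at 0 min. HMO1, a high-mobility-group protein of these promoters, was at 167 at 10 min, against 256 at 0 min. Of the 9 dedicated chaperones analysed, which escort single ribosomal proteins, 8 were past 1.5-fold higher (median 1.07). RRB1, the chaperone of Rpl3, was at 287 at 10 min, against 111 at 0 min. BCP1, the chaperone of Rpl23, was at 149 at 10 min, against 51.7 at 0 min. PUF6, the chaperone of Rpl43, was at 216 at 10 min, against 71.4 at 0 min.

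Fewer genes of the other lists passed 1.5-fold at 10 min. Of 6 genes of the CURI complex and casein kinase 2, only UTP22 was past 1.5-fold higher (134 at 10 min, against 69.6 at 0 min). None of the 5 acidic stalk (P protein) genes, the 9 genes of ribosome-associated factors or the 9 elongation factor genes was past 1.5-fold at 10 min in either direction. At 60 min, 4 of the 5, 4 of the 9 and 4 of the 9 were past 1.5-fold higher (medians 0.68, 0.58 and 0.45).

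Against the mean of all released time points, the arrested cells had lower RNA of most of these genes. In the arrest, 48 of 130 were past 1.5-fold lower (15.8% of all genes) and none was higher (21.2% of all genes), with a median of -0.55 (all genes 0.03). Only RPL41B (0.16) and RPS30A (0.03) were above 0. The median was -0.63 with upper-quartile scaling (all genes -0.036), with 81 genes past the threshold. It was -0.69 with the sum of all other genes (all genes -0.095), with 103. None was past 2-fold. Ribi genes had a median of -1.32 (34 of 34 lower) and glycolytic genes 0.41 (7 of 16 higher).

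A small late difference was shared by the whole set. All 130 genes had lower RNA at 140 min than at 80 min (median -0.27, all genes 0.06, Ribi genes -0.48). Only 3 were past 1.5-fold lower (1.48% of all genes). RPS28B, whose protein controls decay of its own mRNA in yeast, was at 682 at 140 min, against 1137 at 80 min. RPL39, a small protein of the exit tunnel, was at 2357 at 140 min, against 3631 at 80 min. RPS29A was at 3255 at 140 min, against 4888 at 80 min.

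The S-phase difference in RNA had another sign in each cycle. In the first S phase (20 and 30 min) the median was -0.19 relative to 10, 50 and 60 min (126 of 130 below 0, all genes 0.06), and in the second (80 and 90 min) it was 0.04 relative to 70, 110, 120 and 130 min (97 above 0, all genes 0.00). The first value moved with its baseline, to -0.07 with 0 min included, -0.40 without 10 min and -0.05 without 60 min, and the second was -0.01 without 130 min.

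Among the 130 genes the 70 min time point stood apart. The departure of each gene from the mean of its neighbouring time points had an SD of 0.185 over the 130 genes at 70 min, against 0.0209 to 0.114 at the other time points, on the log2 scale. Over all genes the SD was 0.204 at 70 min and 0.382 at 10 min. Over highly expressed genes (RNA values of at least 1000) it was 0.319 and 0.333 at these times. RPL4B, whose protein lines the exit tunnel, departed by -0.56 (337 at 70 min, against 493 at 60 min and 500.5 at 80 min). RPS30A departed by 0.50 (3575 at 70 min, against 2583 at 60 min and 2471 at 80 min). Of the 130 genes, 65 peaked at 70 min (11.4% of all genes), 20 at 110 min (1.24% of all genes) and 18 at 60 min (1.5% of all genes), and with 70 min left out 51 peaked at 60 min (3.36% of all genes) and 42 at 110 min (1.86% of all genes). The trough was the arrest in 80 genes (29.2% of all genes) and the 10 min sample in 45 (4.31% of all genes).

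RNA levels were high and spread over more than 2 orders of magnitude. The RNA value, which is per gene length by its name, averaged 48.9 to 22188 over the 15 time points (median 1645, all genes 42.6), and 127 of the 130 genes were in the top decile of all genes. RPL41A was highest (22188), followed by RPS31 (10504), which encodes a ubiquitin fusion, RPL32 (8641), RPL38 (8227) and RPL41B (8157). RPL15B (48.9), RPL7B (203), RPL18B (234), RPL22B (279) and RPL35B (330) were lowest, and all 5 are B copies. Single-copy genes (18) had a median of 6012 and genes of pairs (112) one of 1458. Genes with an intron had a median of 1405 and those without one 4559. The genes with the largest range over 10 to 140 min were RPS26B (1.25), RPS25B (1.21) and RPS9B (1.19) on the log2 scale, and without 70 min these ranges were 1.03, 1.05 and 1.19.

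The copies of a pair were often unequal. Over 56 pairs the median ratio of the higher to the lower copy was 1.59-fold (log2 0.67), and 21 pairs differed by more than 2-fold. RPL15 was the most unequal, with the A copy at a mean of 4658 and the B copy at 48.9 (92.7-fold as the mean log2 ratio over time points), followed by RPS22 (8.90-fold) and RPL22 (7.71-fold). RPS4 (log2 0.03), RPS21 (0.04) and RPL42 (0.12) were nearly equal. Copy A was higher at all 15 time points in 30 pairs and copy B in 22, and in RPL37, RPL6, RPS21 and RPS4 the order changed. Within a pair the log2 ratio ranged over a median of 0.44 across time, and over more than 1 in 4 pairs. The coding sequences of a pair were a median of 93.2% identical, between 78.9% for RPL22 and 99.4% for RPL1, so reads of the closest pairs may have been split between copies.

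In most pairs the lower copy gained on the higher one at release. The difference between 10 and 0 min was larger in the lower copy in 40 of 56 pairs (median of the excess 0.13) and in 19 of the 21 pairs past 2-fold, with RPL41 and RPL36 as the exceptions. Which copy is lower was set from all 15 time points, these 2 included. The ratio of RPL22A to RPL22B was 3.17 on the log2 scale at 0 min, 1.94 at 10 min, 2.93 at 60 min and 3.31 at 140 min. That of RPS9B to RPS9A was 1.89 at 10 min, against 2.64 at 0 min. That of RPS30A to RPS30B was 0.51 at 10 min, against 0.84 at 0 min. In these 3 pairs the copies were thus closer after release, and in RPL22 the ratio of the arrest had returned by the end of the series. The lower copy had the lower promoter score in 30 of 56 pairs and the higher nucleosome score in 26.

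**Figure D3:**
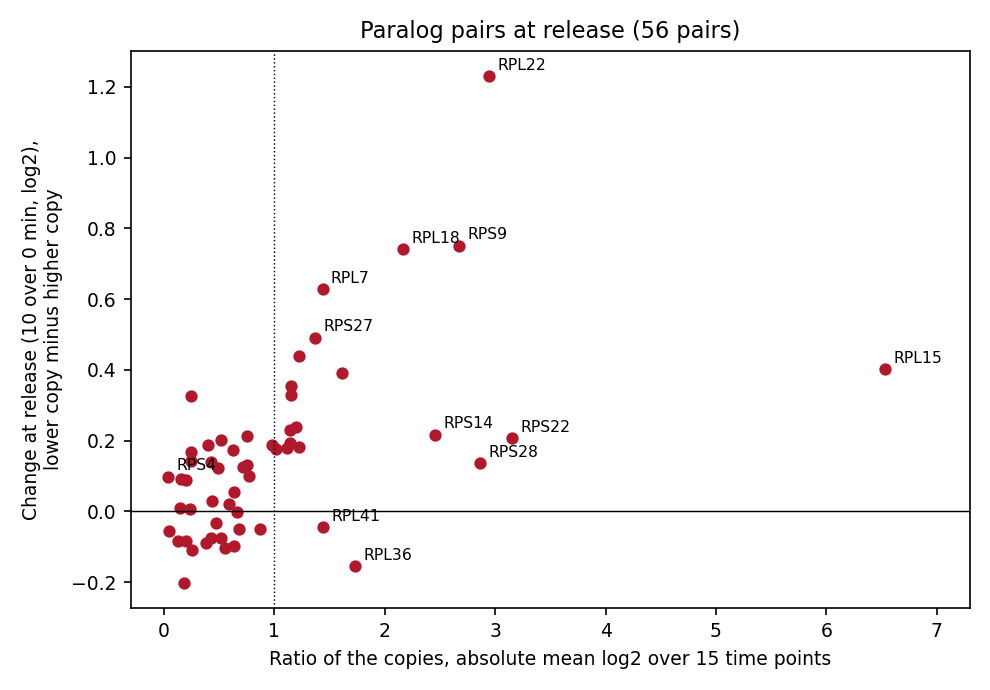
Each point is 1 of the 56 pairs. The x axis gives the absolute mean log2 ratio of the copies over 15 time points (dotted line at 1, or 2-fold) and the y axis the release difference (10 over 0 min, log2) of the lower copy minus that of the higher copy, which is above 0 in 40 pairs and in 19 of the 21 to the right of the line.

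Gene bodies of the ribosomal protein genes had low nucleosome scores and their promoters high subnucleosome scores. Averaged over the 15 time points, the nucleosome score had a median of 0.0343, against 0.0493 over all genes (percentile 15.2 of all genes), and 53 of 130 were in the lowest decile. The promoter score had a median of 0.0392, against 0.0231 over all genes (percentile 87.2), with 124 above the all-gene median and 52 in the top decile. Other highly expressed genes were alike in both, as the 80 with mean RNA values of at least 1000 had medians of 0.0312 (40 in the lowest decile) and 0.0381. The lowest nucleosome scores were those of RPL1B (0.0101), RPL4A (0.0109) and RPL8A (0.0119), and the highest those of RPL41A (0.0893), RPL41B (0.0684) and RPS18B (0.0613). Only reads that map to 1 place were kept. Words of 25 bases that recur in the genome made up 89.7% of RPL1B, 84.3% of RPL4A and 27.3% of RPL8A. They made up 83.3% each of RPL41A and RPL41B. These RPL41 genes are 78 bp long, shorter than a nucleosomal fragment, so their share cannot show whether fragments were lost. The median nucleosome score was 0.0333 in the 35 genes with under 5% of such words and 0.0351 in the 95 others. Over the 130 genes it was hardly ranked with their share (Spearman's rho -0.05, all genes -0.16). Single-copy genes had a median of 0.0288 and genes of pairs 0.0357, and loss of reads from the copies was not tested. Genes with an intron had a median nucleosome score of 0.0381 and genes without one 0.0245. Across the 130 genes mean RNA was ranked nearly independently of the nucleosome score (Spearman's rho -0.04, all genes -0.17) and of the promoter score (rho 0.01, all genes 0.40), in values that share the same libraries.

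**Figure D4:**
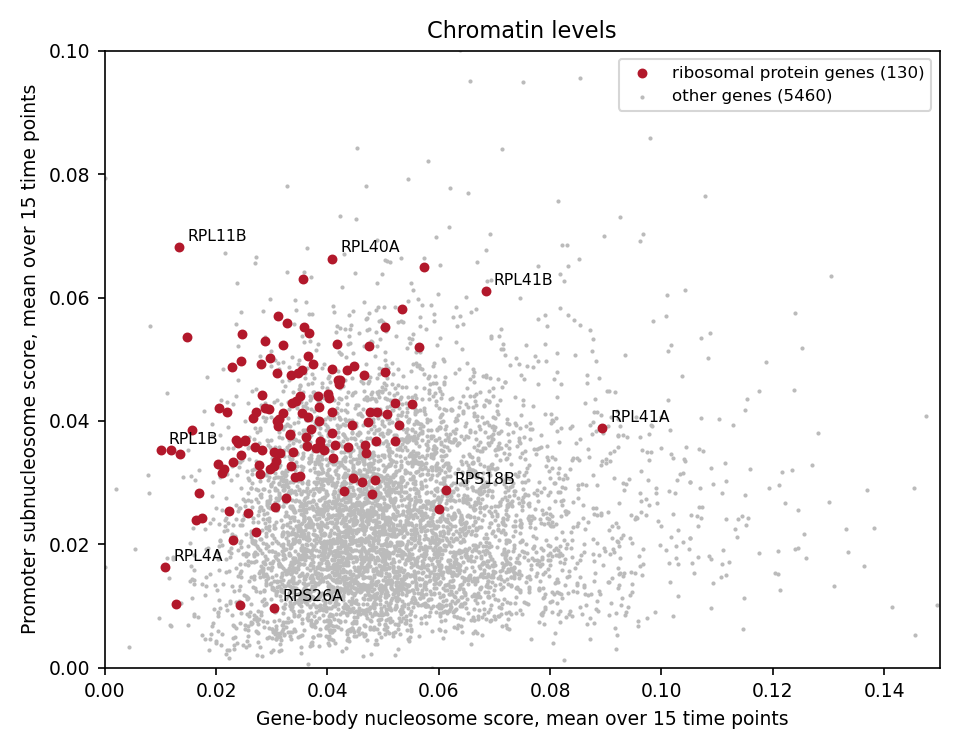
Gene-body nucleosome score (x axis) and promoter subnucleosome score (y axis), each a mean over 15 time points, for the 130 ribosomal protein genes and the 5460 other genes. The medians of the ribosomal protein genes are 0.0343 and 0.0392, and 9 genes lie outside the drawn range.

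The nucleosome score over these genes fell away from the arrest and was lowest at 50 and 60 min. Its median was 0.0394 at 0 min, 0.0343 at 10 min, 0.0300 at 60 min and 0.0356 at 140 min, while that of all genes was 0.0498 at 60 min, against 0.0493 at 0 min. The arrest held the highest score of 87 genes (22.8% of all genes), and the lowest score of 46 came at 60 min (8.43% of all genes) and of 36 at 50 min (9.53% of all genes). At 10 min against 0 min, 49 were past 1.2-fold lower (4.62% of all genes, median -0.22, all genes -0.03). At 60 min against 0 min, 86 were lower (9.03% of all genes) and 7 higher (13.8% of all genes), with a median log2 difference of -0.38 (all genes 0.01). Ribi genes had a median of -0.19 and glycolytic genes 0.21 at 60 min. Later the score came back in part, with 36 genes past 1.2-fold higher at 130 min than at 60 min (3.42% of all genes, median 0.18, all genes 0.04).

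Genes with and without an intron in the coding sequence differed most in this course at 60 min. With an intron, 77 of 88 were past 1.2-fold lower at 60 min, all 88 were below 0 and the median was -0.46. Without one, 9 of 42 were lower and 7 higher, with a median of -0.07. The contrast was smaller at 50 min, when 78 of 88 with an intron and 24 of 42 without one were lower (102 in all, 9.5% of all genes), with medians of -0.43 and -0.31. At 10 min both had nearly the same median (-0.22 with, -0.21 without), and at 140 min the medians were -0.25 with and 0.07 without. Genes with an intron were also longer (median 852.5 bp, against 498 bp without), and the part of length in this contrast was not tested. RPL33A, with an intron, was at 0.0235 at 60 min, against 0.0394 at 0 min (log2 -0.74). RPL27A, also with one, was at 0.0280 at 60 min, against 0.0464 at 0 min (-0.73). RPS26B, without an intron in its coding sequence, had the largest difference of all (-0.83), at 0.0265 at 60 min against 0.0470 at 0 min. Introns of 5′ UTRs were not counted, and the TSS of RPS26B (423536) lies well upstream of its coding start (423952). Its paralog RPS26A led the 7 genes that were higher, at 0.0347 at 60 min, against 0.0232 at 0 min (0.58), and the others were RPL41B (0.54), RPL15B (0.48), RPS28A (0.42), RPL24B (0.33), RPS22A (0.28) and RPL11B (0.28). None of these 7 has an intron in its coding sequence. Genes with the Rap1 word had a median of -0.44 and genes without it -0.30. Both of these groups mix genes with and without an intron, and the part of introns in this difference was not tested.

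**Figure D5:**
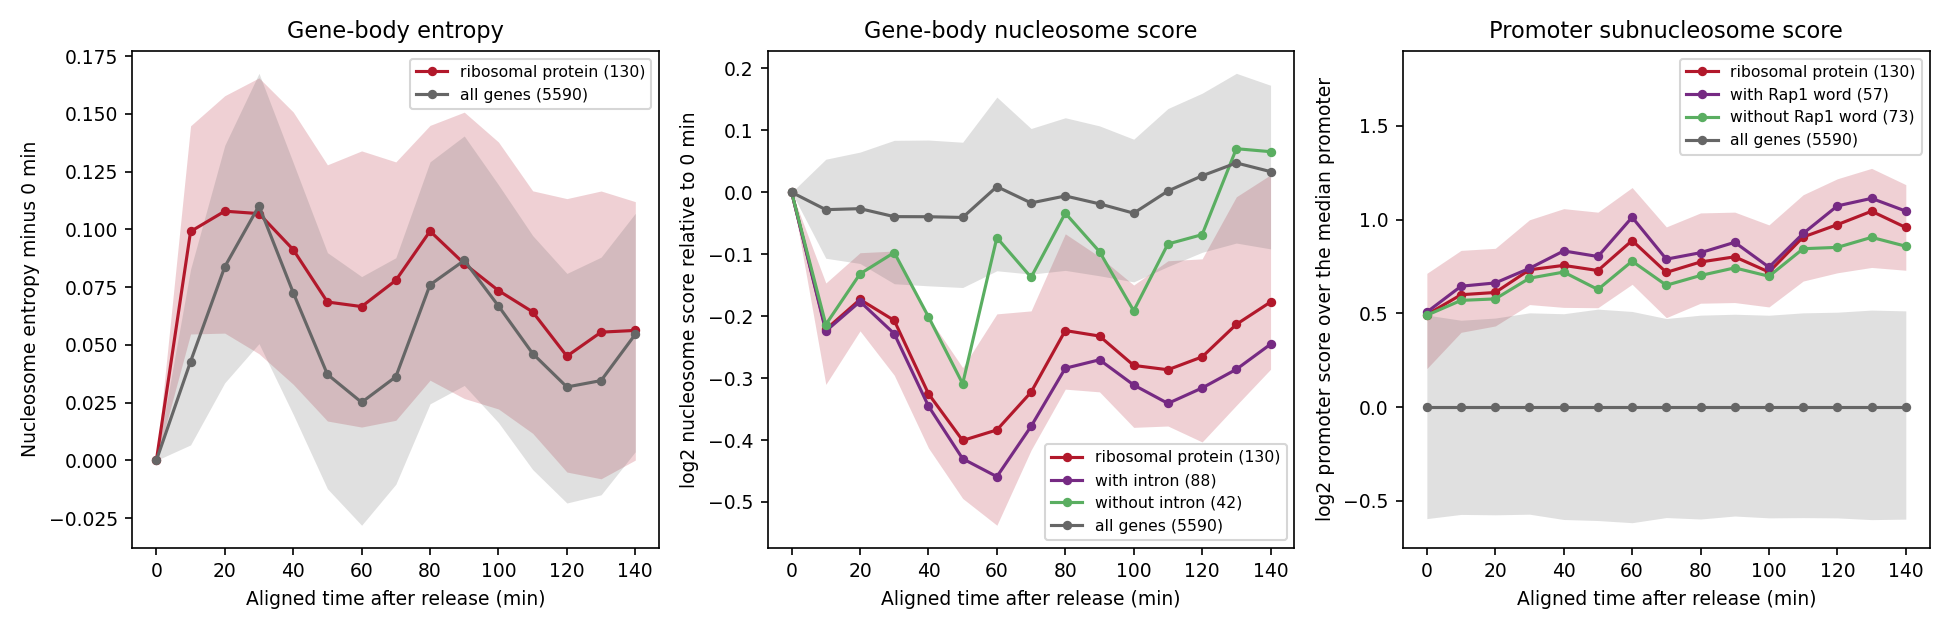
Chromatin over aligned time after release (x axis, min), as medians with quartile bands for the 130 genes and all genes. Left, gene-body entropy minus its 0 min value; middle, log2 of the gene-body nucleosome score relative to 0 min, also for genes with and without an intron, which have medians of -0.46 and -0.07 at 60 min; right, log2 of the promoter score over the median promoter of the same time point, also for genes with and without the Rap1 word, with the median of the 130 genes at 1.04 at 130 min, against 0.49 at 0 min.

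S phase was a small feature of the nucleosome score. It was higher in the first S phase in 105 genes (41.5% of all genes, median log2 0.07, all genes -0.02) and in the second in 94 (33.0% of all genes, median 0.05, all genes -0.03). In the second S phase 74 of 88 genes with an intron and 20 of 42 without one were higher.

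Entropy was high over the genes with an intron, and over the 130 genes its larger step came between 0 and 10 min rather than between 10 and 30 min. The paper places 10 min at the G1/S transition, and the labels of an MNase library of that time disagree on release. Release and entry into S phase thus cannot be told apart in that step. The level over the 130 genes had a median of 5.94 (natural log units, all genes 5.80, percentile 78.5 of all genes). It was 5.95 over the 80 other highly expressed genes and 6.10 over glycolytic genes. With an intron the median was 5.96 (percentile 82.6), and without one 5.80 (percentile 51.7, with 12 of 42 in the lowest decile). Across the 130 genes the level rose with gene length (Spearman's rho 0.23, all genes 0.08), and the part of length was not tested. By time, the median was 5.839 at 0 min, 5.964 at 10 min, 5.978 at 30 min, 5.933 at 60 min, 5.948 at 80 min and 5.918 at 140 min, while that of all genes was 5.737 at 0 min, 5.789 at 10 min, 5.860 at 30 min and 5.764 at 60 min. Entropy was higher at 10 min than at 0 min in 117 of 130 genes (78.5% of all genes), with a median difference of 0.099, against 0.043 over all genes and 0.134 over Ribi genes. Between 30 and 10 min the median difference was 0.014 (76 higher), against 0.064 over all genes and 0.080 over Ribi genes. The lowest value of the series was at 0 min in 74 genes (56.9%, against 45% of all genes). RPS28B had the largest difference at release, at 5.04 at 10 min against 4.70 at 0 min.

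As z-scores over the 15 time points, entropy was higher in the first S phase in 118 genes (90.8%, against 95.1% of all genes), by a median of 1.03, against 1.57 over all genes and 1.00 over the 80 other highly expressed genes. In the second it was higher in 109 (83.8%, against 91.6% of all genes), by 0.68, against 0.98. The first median was 0.68 and the count 78.5% when 0 min was left out of the baseline. Ranked by the smaller of the differences in the 2 cycles, RPL9A came first (1.73 in the first S phase, 1.61 in the second), then RPL40B, a ubiquitin fusion gene (1.39 and 1.63), and RPL35B (1.58 and 1.24). RPS22B was below 0 in both (-1.23 and -0.90). RPL21A (1.16 and -1.05) and RPL37A (0.72 and -0.75) changed sign between the cycles. Over the 130 genes the entropy level fell with the share of recurring 25-base words (Spearman's rho -0.43, all genes 0.05), in genes that share their libraries.

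Promoter scores of the ribosomal protein genes were above the median promoter throughout, and their lead over it was smallest in the arrest. The deposited values had a median of 0.0370 at 0 min, 0.0384 at 10 min, 0.0406 at 40 min and 0.0385 at 140 min, while that of all genes was 0.0191 at 130 min, against 0.0263 at 0 min. Relative to the median promoter of each time point the median was 0.49 at 0 min, 0.60 at 10 min, 0.89 at 60 min and 1.04 at 130 min on the log2 scale, and 95 genes had their lowest relative score in the arrest (19.3% of all genes). In the arrest, against the mean of all released time points, 85 genes were past 1.2-fold lower (15.8% of all genes) and none higher (10.9% of all genes), with a median of -0.33 (all genes -0.02, Ribi genes 0.06). Of the 80 other genes with mean RNA values of at least 1000, 26 were lower (median -0.20). On the deposited scale the median was -0.11 and 14 genes were past that threshold, so the size of the difference depends on the scaling to the median promoter. At a 1.5-fold threshold the count was 3. Between 10 and 0 min, 16 were higher (8.66% of all genes) and 2 lower (5.1% of all genes), with a median of 0.13 (all genes 0.00), and on the deposited scale 6 were higher.

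Single promoters followed this to different degrees. RPS30B was furthest down in the arrest (-0.63), at 0.0377 at 0 min, 0.0465 at 10 min and 0.0574 at 60 min. RPS4B (-0.61) and RPS24B (-0.60) came next, and RPS24B was at 0.0306 at 60 min, against 0.0215 at 0 min. RPL4A (0.15), RPL1A (0.08) and RPL18B (0.07) were the highest, none past the threshold. The highest levels over the series were those of RPL11B (0.0682), whose protein is part of the 5S particle, RPL40A (0.0663) and RPL13A (0.0649). The lowest were those of RPS26A (0.00975), RPL24A (0.0102) and RPL24B (0.0104), whose protein forms a bridge between the subunits. Genes with the Rap1 word had a median level of 0.0404, against 0.0368 without it, and 44 of 57 with it and 41 of 73 without it were lower in the arrest (medians -0.37 and -0.29).

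Over the 15 time points, RNA moved against the nucleosome score in most genes with an intron. The median Pearson r of log2 RNA and nucleosome score was -0.57 over the 130 genes, and 109 were negative (65.8% of all genes, median -0.20, Ribi genes -0.69). With an intron the median was -0.64 (85 of 88 negative) and without one -0.06 (24 of 42 negative). Without 0 min the median over the 130 genes was -0.38. These are 15 points in time that share their libraries, so the values describe likeness of course only.

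RNA and promoter score ran together about as often as over all genes. Their r was positive in 94 of the 130 genes (72.3%, against 69.8% of all genes), with a median of 0.28 (all genes 0.22), and it was 0.48 when the median course was subtracted. The median was 0.43 in genes with the Rap1 word (50 of 57 positive) and 0.10 in those without it (44 of 73 positive). RPS24B (0.88), RPS2 (0.84) and RPS17B (0.82) were highest, and RPL5 (-0.70), RPS1A (-0.64) and RPL8B (-0.60) lowest. RPS2, a protein of the mRNA entry channel, had RNA values of 3880 at 0 min, 4106 at 10 min and 6845 at 60 min, and promoter scores of 0.0569 at 60 min, against 0.0438 at 0 min. RPL5, which carries the 5S RNA, had RNA values of 5584 at 60 min, against 3587 at 0 min, and promoter scores of 0.0185 at 60 min, against 0.0228 at 0 min. Both genes rose in RNA, and their deposited promoter scores differed in direction. The all-gene median of that score was 0.0216 at 60 min, against 0.0263 at 0 min, so RPL5 fell much as the median promoter did. RNA and entropy were hardly related, with r positive in 76 genes (61.6% of all genes) and a median of 0.08 (all genes 0.17, Ribi genes 0.71), which was -0.17 without 0 min.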

How the data were processed

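MNase-seq and RNA-seq were done on 2 biological replicates of an α-factor block and release. Per the study's methods, MNase reads were 25 bp paired ends aligned with Bowtie 0.12.7 to the R64 (sacCer3) genome, kept where they mapped to 1 place, subsampled to the same fragment length distribution, cleared of mitochondrial and rDNA reads, and merged between replicates at each aligned time. RNA was extracted with hot phenol and made into stranded total RNA libraries after rRNA removal, and the tool that counted RNA reads is not given in the sources used here. The deposited values of all 4 tables were treated as scores made by the authors: an RNA value named TPM whose columns sum to 949828 to 1041380 rather than to the fixed total of that unit, the entropy and the nucleosome score of each gene body (similarity to a model nucleosome, with no statement whether this table was divided by copy number), and a promoter subnucleosome score that the methods do not describe. No table had columns of single samples (0 of them), so depth and replicate spread are unknown.

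The genes, lists and comparisons were chosen with earlier results of these data known. RNA was compared as log2(value + 1), nucleosome scores as log2 ratios, entropy as z-scores over 15 time points, and promoter scores as log2 over the median promoter of each time point. The arrest was 0 min over the mean of later times, and the release 10 over 0 min. S phase was 20 and 30 min against 10, 50 and 60 min (with 0 min for chromatin), and 80 and 90 min against 70, 110, 120 and 130 min. Named genes were the extremes of each measure (5 by RNA level, 3 by each other measure, and 3 pairs by copy ratio). Genes named for the differences at 60 min over 0 min, 140 min over 80 min and 10 minus 0 min in entropy, for the departures at 70 min and as the 7 with higher nucleosome scores were chosen after their values were seen, as was RPS11B for its sequence. From each fixed list at most 3 genes past 1.5-fold were named, and 1 list is not reported here. Genes with an intron were those with more than 1 coding part in RefSeq R64, so introns of 5′ UTRs were not counted. Alternatives were other pseudocounts (0.1 and 10), thresholds, scalings, baselines and left-out time points, and genes with under 5% of recurring 25-base words. The RNA differences at release, in the arrest and at 60 min over 0 min were tested on simulated data. The z-score and correlation calculations were tested on small made-up inputs, and the other calculations were not tested in this way. Python 3.11.15, numpy 2.4.6, scipy 1.17.1, pandas 2.3.3, matplotlib 3.10.9 and Biopython 1.88 were used.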

Additional observations from a re-analysis of the deposited data

Results flagged for a closer look

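The RNA of the ribosomal protein genes differed in sign between the cycles. The median S-phase difference was -0.19 on the log2 scale in the first cycle, against a baseline of 10, 50 and 60 min, and 0.036 in the second, against 70, 110, 120 and 130 min. It was below 0 in 126 of 130 genes in the first and above 0 in 97 in the second. The first median moved with its baseline, and the second fell below 0 when 130 min was left out. Whether the cycles differ was not tested, because each time point holds 1 merged value.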

How the results depend on the processing

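No paired analysis was possible because each deposited value pools the replicates of its time point, and for that reason neither replicate could be left out. Of 123 alternatives to the main results, 88 left the value in place, 34 moved it and 1 reversed a called value, and of 546 for single genes 117 moved and 0 reversed a called value. Counting values that were not called, the sign changed in 3 and 28 of these, among them the release median and the second S-phase RNA median (-0.015 without 130 min). With a 2-fold RNA threshold the counts were 1 at release, 0 in the arrest and 8 at 60 min. Upper-quartile scaling gave a release median of -0.10, 81 genes lower in the arrest (all-gene median -0.036) and a 60 min median of 0.87. Scaling by the sum of other genes gave an arrest median of -0.69 (all genes -0.095), 103 genes lower in the arrest and a 60 min median of 0.93. Taking 50 min in place of 60 min gave 0.63. The first S-phase RNA median was -0.074 with 0 min in the baseline, -0.40 without 10 min and -0.052 without 60 min. Entropy in the first S phase had medians of 0.048 as raw values, 0.68 without 0 min (78.5% of genes higher) and 1.34 without 10 min, and 97.1% of genes with few recurring words were higher. In the second its medians were 0.030 as raw values, 0.57 for those genes, 0.54 without 80 min, 0.83 without 70 min and 0.54 without 120 min. S-phase nucleosome scores as z-scores had medians of 0.43 and 0.34. Promoter scores as deposited gave an arrest median of -0.11 with 14 genes lower, and 6 genes higher at release. At 1.5-fold the promoter counts were 3 in the arrest and 0 at release. Without 0 min the median correlation of RNA was -0.17 with entropy, which reversed it, and -0.38 with the nucleosome score, and with the median course subtracted it was 0.48 with the promoter score. The causes were not tested. With 1 merged value per time point and no known depth, no interval could be given.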
